A study of Mus musculus with 5 samples.

Results

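Keratin genes, taken as every gene whose symbol is Krt followed by digits alone, numbered 47 of the 28001 genes listed for the unsorted dorsal skin libraries, and 49 of the 31054 in the list used for the sorted library. The related keratin-associated proteins (Krtap) and Krtdap were left out by that rule, and so were the 4 keratins Krt6a, Krt6b, Krt33a and Krt33b, whose symbols end in a letter. Of the 47 members, 30 had at least 50 unique molecular identifiers (UMIs, 1 per captured transcript) over the kept unsorted cells, 15 had from 2 to 47, and Krt40 and Krt74 had none. The family divides into 26 type I and 21 type II genes.

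All mice were female and carried 2 engineered alleles. Lepr-Cre expresses Cre recombinase wherever the leptin receptor gene is active. In mTmG, a reporter at Rosa26, recombination replaces membrane-bound tomato by membrane-bound GFP. Mutant libraries 1 and 2 were whole, unsorted dorsal skin at postnatal day 46 with the genotype Lepr-Cre;mTmG;Smo+/-, where Smo encodes the Hedgehog signal transducer Smoothened. Control libraries 1 and 2 were unsorted dorsal skin of the same age, given as Lepr-Cre;mTmG in the sample labels and as Lepr-Cre;mTmG;Smo in the protocol, and a single sorted library held viable GFP-positive cells of Lepr-Cre;mTmG skin at postnatal day 50. The labels call the 2 libraries of each genotype technical replicates, so that every p-value measures the spread between libraries and not between mice, and the nature of the Smo allele is not given in the sources used here. Lepr-Cre acts in cells that have expressed the leptin receptor, which the series places in the mesenchyme of the hair follicle. Whether keratinocytes had recombined was not analysed here.

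Keratins are the intermediate filament proteins of epithelial cells, and each filament is built from pairs of 1 type I and 1 type II chain. In mouse epidermis, dividing basal cells make Krt5 with Krt14 and, after leaving the basal layer, switch to Krt1 with Krt10. Krt16 and Krt17 accompany the follicle and stressed or wounded epidermis, Krt15 is abundant in the resting stem cells of the bulge, Krt79 marks the upper follicle, and Krt8 with Krt18 form the filaments of single-layered epithelia.

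The genes lay in 2 blocks of the GRCm38 assembly. Chromosome 11 held 25 members, all type I, between 99232761 and 100269871, a span of 1037 kb. The other 22 lay on chromosome 15 between 101347444 and 102032027, a span of 685 kb, and they were the type II genes with Krt18 beside Krt8 as the only type I gene among them. The genes of the suprabasal pair sat at chr11:99385254-99389364 (Krt10, minus strand) and chr15:101845426-101850794 (Krt1), and those of the basal pair at chr11:100203162-100207548 (Krt14, minus strand) and chr15:101707070-101712898 (Krt5). Krt77 was at chr15:101858731-101869705 and Krt79 at chr15:101929332-101940324. In the last 500 bases of the transcripts, where 3′ tags fall, Krt14 and Krt17 shared 23 of 441 stretches of 60 bases, so a small part of their UMIs could be split between them. Krt10 and Krt5 shared none with another keratin. Krt5, Krt7, Krt8, Krt10, Krt12, Krt32, Krt75, Krt76 and Krt80 overlap an annotated gene on the opposite strand, and how strand was used in counting is not given in the sources used here. No member overlapped a gene on its own strand.

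The 250 bases before the start were read for 34 members (35 windows, from RefSeq on GRCm38.p6), and 4 are printed here because their genes were high in different layers: Krt10 and Krt77 were high in suprabasal cells, Krt79 in the upper follicle and Krt5 in basal cells. They are chr11:99389365-99389614, chr15:101869706-101869955, chr15:101940325-101940574 and chr15:101712906-101713155, in that order, all on the minus strand and written 5′ to 3′ towards the start. Capitals mark the motifs TATAAA and TATATA, and also CCAAT, on either strand, so ATTGG in the Krt10 window is CCAAT on the other strand.
Krt10: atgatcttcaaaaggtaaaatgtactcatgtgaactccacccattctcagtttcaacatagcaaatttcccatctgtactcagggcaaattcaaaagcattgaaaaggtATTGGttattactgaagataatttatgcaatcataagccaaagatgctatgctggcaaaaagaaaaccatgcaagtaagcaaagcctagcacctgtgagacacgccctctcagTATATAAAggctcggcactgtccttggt
Krt77: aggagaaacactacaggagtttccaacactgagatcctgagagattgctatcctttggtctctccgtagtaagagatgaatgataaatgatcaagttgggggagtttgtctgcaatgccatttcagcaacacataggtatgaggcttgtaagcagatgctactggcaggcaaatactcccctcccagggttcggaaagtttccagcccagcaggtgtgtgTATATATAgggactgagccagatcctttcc
Krt79: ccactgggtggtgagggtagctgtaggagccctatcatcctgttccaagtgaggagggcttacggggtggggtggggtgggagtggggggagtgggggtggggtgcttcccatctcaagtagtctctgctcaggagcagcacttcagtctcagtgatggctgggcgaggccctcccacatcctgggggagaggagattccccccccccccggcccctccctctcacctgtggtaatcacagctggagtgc
Krt5: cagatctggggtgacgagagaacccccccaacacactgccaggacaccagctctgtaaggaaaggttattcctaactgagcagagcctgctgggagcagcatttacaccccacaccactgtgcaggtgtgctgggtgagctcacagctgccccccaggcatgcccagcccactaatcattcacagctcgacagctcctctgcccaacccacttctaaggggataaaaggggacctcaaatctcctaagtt
In Krt10 the motifs TATATA and TATAAA overlapped, beginning 28 and 26 bases before the start, and in Krt77 TATATA occurred at 30 and at 28 bases in overlapping copies. The Krt79 and Krt5 windows held none of the 3 motifs. TATAAA was found in 45.7% of the member windows and in 12.4% of the 32851 windows of all genes, TATATA in 25.7% against 5.25%, and CCAAT in 37.1% against 33.8%. GCCNNNGGC, a form of the AP-2 site, was in 11.4% of member windows and 13.7% of all windows, and TGANTCA, a form of the AP-1 site, in 5.71% and 6.75%. The letters were partly chosen with the windows in view, and a match describes the sequence and not a bound factor.

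Cells were kept at 8384 and 8652 in the mutant libraries, 8102 and 8241 in the control libraries and 432 in the sorted library. Median UMIs per cell were 8455 and 8283 in the mutant and 9487 and 9756 in the control libraries, and between 24 and 46 cell barcodes were shared by each pair of unsorted libraries. Cells were assigned to layers and types by 22 marker lists that contain no keratin, so the keratin values below were not used in the assignment. Basal cells were gated on hemidesmosome and basement-membrane genes such as Col17a1 and Itgb4, suprabasal cells on Krtdap, Sbsn and Dsc1, granular cells on Lor and Flg, upper follicle cells on Cst6, Defb6 and Gata6, and bulge cells on Lhx2, Sox9 and Cd34. The basal gate held 1403 and 1467 mutant and 1943 and 1962 control cells, and the suprabasal gate 485 and 514 mutant and 685 and 687 control cells. The upper follicle gate held 172 and 187 mutant and 297 and 281 control cells, the bulge gate 98 and 108 mutant and 98 and 132 control cells, and the granular gate only 10 to 21 cells a library. Levels are CPM, the gene's UMIs in a gate scaled by the UMIs of all genes in that gate to counts per 1000000. They are not divided by transcript length, because a 3′ library gives 1 tag per molecule whatever the length. The Smo level was 18.4 and 17.4 CPM in mutant and 12.9 and 13.1 CPM in control libraries, a 3′ tag count that does not check the allele.

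A group of 8 genes carried nearly all keratin transcripts. Of 7254140 keratin UMIs in kept unsorted cells, Krt14 held 32.8%, Krt17 16.5%, Krt16 13.4%, Krt5 10.8%, Krt10 9.07%, Krt77 7.66%, Krt15 7.30% and Krt1 1.29%, together 98.8%. All keratins made up 1.28% and 1.26% of UMIs in the mutant libraries and 1.52% in both control libraries, where basal cells were also a larger share of kept cells (16.7% and 17.0% in mutant, 23.98% and 23.8% in control libraries). The share held by the basal gate was lower in both mutant libraries, with an exact permutation p of 0.3333, the smallest that 2 against 2 libraries allow. Within the basal gate the total was nearly equal between genotypes, at 18866 and 18900 CPM in mutant against 19074 and 18821 CPM in control cells. In the other gates both mutant libraries lay above both control libraries. Suprabasal cells had 20355 and 19860 CPM in mutant against 19030 and 19031 CPM in control libraries. Upper follicle cells had 18386 and 17177 against 16917 and 16751 CPM, and bulge cells 18453 and 18390 against 17607 and 16464.5 CPM. These totals were not tested.

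Both chains of the basal pair were lower in suprabasal than in basal cells. Krt14, the type I partner, stood at 380 and 369 CPM in mutant and 392 and 452 CPM in control suprabasal cells, against 8327 and 8502 CPM in mutant and 9162 and 9011 CPM in control basal cells. Krt5, its type II partner, stood at 118 and 161 CPM in mutant and 242.5 and 266 CPM in control suprabasal cells, against 2674 and 2616 CPM in mutant and 2935 and 2905 CPM in control basal cells. No suprabasal library reached the lowest basal library for either gene. In edgeR's quasi-likelihood test with library as a block, Krt14 was lower in suprabasal than in basal cells by a log2 fold of -4.28 (SE 0.04, adjusted p 2.63e-16) and Krt5 by -3.68 (SE 0.13).

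The differentiation keratins ran the other way. Krt10, the type I chain of the suprabasal pair, stood at 5466 and 5641 CPM in mutant and 6431 and 6282 CPM in control suprabasal cells, against 92.9 and 83.1 CPM in mutant and 102 and 113 CPM in control basal cells. Krt1, its type II partner, stood at 875 and 926 CPM in mutant and 1431 and 1328 CPM in control suprabasal cells, against 20.6 and 16.8 CPM in mutant and 18.15 and 23.5 CPM in control basal cells. Krt77, a type II keratin once named Krt1b, was the more abundant chain, at 4894 and 4820 CPM in mutant and 4455 and 4442 CPM in control suprabasal cells, against 110 and 100 CPM in mutant and 70.1 and 77.5 CPM in control basal cells. The groups of the 2 layers did not overlap for any of the 3 genes, and the log2 folds of suprabasal over basal cells were 6.11 for Krt10 (SE 0.04, adjusted p 3.93e-17), 6.03 for Krt1 (SE 0.11) and 5.91 for Krt77 (SE 0.08). In granular cells Krt10 reached 11938 and 11616 CPM in mutant and 13898 and 13662 CPM in control libraries, and Krt77 11967 and 12983 CPM in mutant and 12847 and 13783 CPM in control libraries. Krt1 was lower there than in suprabasal cells, at 484 and 540 CPM in mutant and 1140 and 713 CPM in control granular cells, from few cells and with no test.

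**Figure D1:**
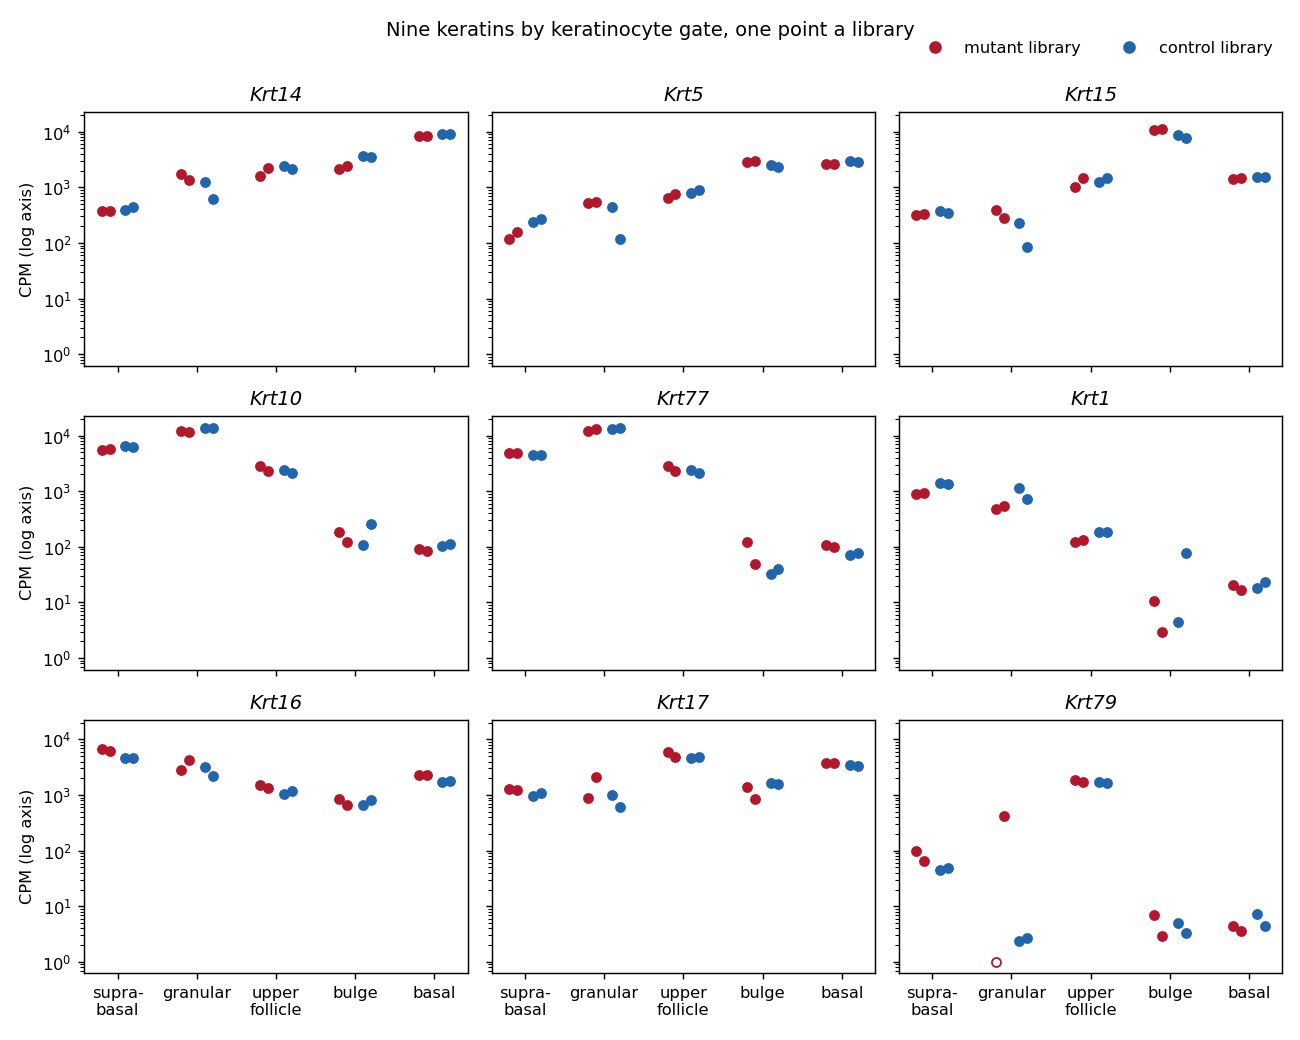
Level of 9 keratins (CPM, log axis) in 5 keratinocyte gates, 1 point a library, mutant in red left of control in blue; an open point at 1 stands for 0 CPM. Krt14 and Krt5 are highest in basal cells, or near it for Krt5 in the bulge, Krt10, Krt1 and Krt77 in suprabasal and granular cells, Krt79 in the upper follicle and Krt15 in the bulge.

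Less abundant members followed the same split. Krt78, a type II keratin, stood at 28.2 and 30.5 CPM in mutant and 35.8 and 33.7 CPM in control suprabasal cells, against 0.228 and 0.238 CPM in mutant and 0.285 and 0.314 CPM in control basal cells. Krt23, a type I keratin, stood at 53.3 and 68.5 CPM in mutant and 41.5 and 49.4 CPM in control suprabasal cells, against 0.709 and 0.713 CPM in mutant and 0.658 and 0.454 CPM in control basal cells. Krt80, a type II keratin, stood at 23.7 and 24.7 CPM in mutant and 24.3 and 23.8 CPM in control suprabasal cells, against 4.30 and 4.15 CPM in mutant and 3.02 and 2.95 CPM in control basal cells. Their log2 folds of suprabasal over basal cells were 7.06 (SE 0.10), 6.55 (SE 0.10) and 2.95 (SE 0.10), so that Krt78 and Krt23, though far less abundant, had larger folds than Krt10 or Krt1. Krt2, which strengthens the upper epidermis of mouse ear and tail, was at 2.43 and 2.85 CPM in mutant and 2.16 and 2.73 CPM in control suprabasal cells, with a log2 fold of 2.55 (SE 0.22) over basal cells.

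Across the family, 25 members were tested between suprabasal and basal cells and 22 were called, with an adjusted p under 0.05 over all genes and an absolute log2 fold of at least 1. Of these, 9 were higher and 13 lower in suprabasal cells. Of all 13834 genes tested, 27.5% were called, 9.77% higher and 17.7% lower. The median log2 fold was -1.20 over the keratins and -0.05 over all genes. Beside those already given, Krt16 was higher (log2 fold 1.62, SE 0.03) and so was Krt79 (3.79, SE 0.21), while Krt15 (-1.93), Krt17 (-1.49), Krt18 (-4.31), Krt24 (-2.95), Krt4 (-2.63), Krt8 (-1.88), Krt28 (-1.77), Krt25 (-1.76), Krt75 (-1.52, adjusted p 0.0382), Krt32 (-1.22) and Krt42 (-1.20) were lower. The fall of Krt8 rested on 1 control basal cell and was not called without it (log2 fold -1.03, adjusted p 0.0757). Krt7 (0.87, adjusted p 0.00592), Krt12 (0.99, adjusted p 0.0785) and Krt19 (-0.74) were not called. Krt75 lost its call without mutant library 1 (-1.34, adjusted p 0.107), mutant library 2 (-0.94, 0.162) or control library 1 (-1.54, 0.0681), in DESeq2 (-1.78, 0.0810) and with the control libraries alone (-0.49, 0.546), and Krt28 lost it in DESeq2 (adjusted p 0.0742).

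Krt16 and Krt17, the pair of type I keratins tied to stress and to the follicle, were not restricted to 1 layer. Krt16 stood at 6834 and 6170 CPM in mutant and 4578 and 4644 CPM in control suprabasal cells, and at 2333 and 2297 CPM in mutant and 1747 and 1784 CPM in control basal cells, so in mutant libraries it was the most abundant suprabasal keratin. Krt17 stood at 5823 and 4798 CPM in mutant and 4654 and 4800 CPM in control upper follicle cells, 3837 and 3775 CPM in mutant and 3490 and 3341 CPM in control basal cells, and 1257 and 1234 CPM in mutant and 966 and 1098 CPM in control suprabasal cells. Both were abundant in cells gated as basal by genes that are not keratins.

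**Figure D2:**
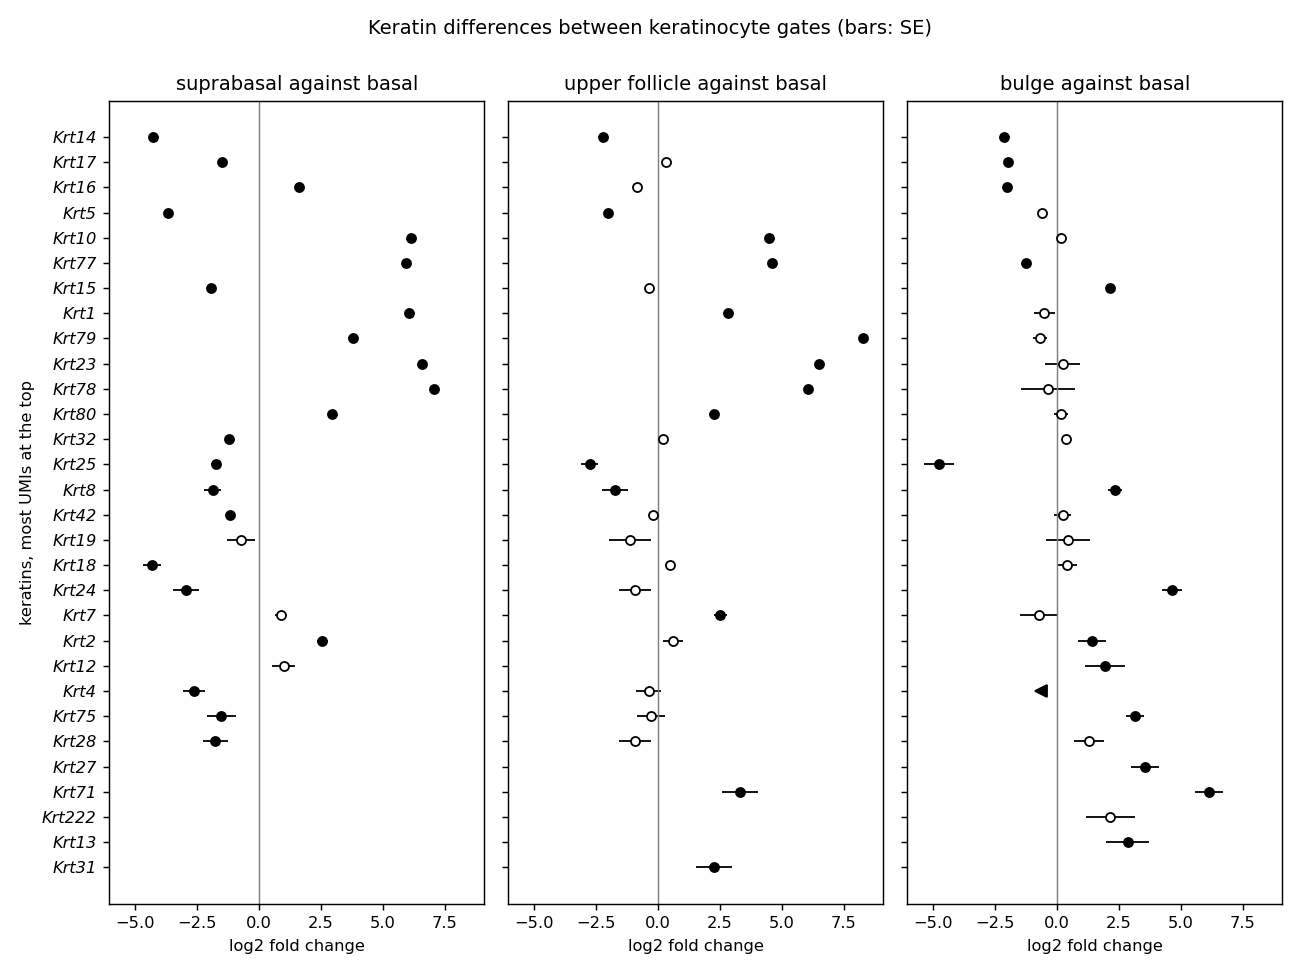
Log2 fold of each keratin tested in suprabasal, upper follicle and bulge cells over basal cells of the same libraries (x axis), with the standard error as the bar; filled points were called and the triangle is a bound. Krt78, Krt23, Krt10, Krt1 and Krt77 lie right of 5 in the suprabasal panel, Krt79 is farthest right in the upper follicle panel and Krt71 and Krt24 in the bulge panel.

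Krt79 set the upper follicle apart. It stood at 1857 and 1718 CPM in mutant and 1689 and 1655 CPM in control upper follicle cells, against 4.51 and 3.59 CPM in mutant and 7.24 and 4.44 CPM in control basal cells. Its log2 fold over basal cells was 8.27 (SE 0.13, adjusted p 9.88e-18), and the bulge gate, the other follicle gate, had only 6.99 and 2.915 CPM in mutant and 5.01 and 3.30 CPM in control libraries. Of 26 keratins tested between upper follicle and basal cells, 10 were called higher and 4 lower, where 21.4% of all genes were called, 12% higher and 9.40% lower. The median log2 fold was 0.24 over the keratins and -0.03 over all genes. The higher ones were Krt79, Krt23 (6.47), Krt78 (6.06), Krt77 (4.59), Krt10 (4.46), Krt71 (3.31, 13 against 9 UMIs), Krt1 (2.82), Krt7 (2.51), Krt80 (2.27) and Krt31 (2.26, 11 against 17 UMIs), and the lower ones Krt25 (-2.77), Krt14 (-2.25), Krt5 (-2.03) and Krt8 (-1.75). Krt7, a type II chain of glandular and simple epithelia, stood at only 3.82 and 4.76 CPM in mutant and 4.24 and 4.68 CPM in control upper follicle cells. Krt17 differed by a log2 fold of 0.30 (adjusted p 2.28e-06) and Krt16 by -0.87 (adjusted p 3.08e-12), both below the fold needed for a call. Without control library 1, Krt31 (1.86, adjusted p 0.111) and Krt8 (-0.98, 0.181) were not called, and Krt8 was not called without the 1 basal cell high in it (-0.83, 0.192).

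The differentiation keratins in the upper follicle came from part of its cells. Krt10 stood at 2855 and 2299 CPM in mutant and 2407 and 2149 CPM in control upper follicle cells. The median cell there had between 1.12 and 1.35 Krt10 UMIs per 10000 UMIs over the 4 libraries, and the 95th percentile was between 96.9 and 143 per 10000. In suprabasal cells the median was 38.0 and 39.5 per 10000 in mutant and 53.7 and 49.4 per 10000 in control libraries. The 75th percentile in upper follicle cells was between 7.53 and 13.2 per 10000. The upper follicle gate therefore held some cells at suprabasal Krt10 levels and others in between, while its median cell was near 1 per 10000.

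Bulge cells were set apart by Krt15, a type I keratin of follicle stem cells. It stood at 10702 and 11176 CPM in mutant and 8855 and 7669 CPM in control bulge cells, against 1431 and 1469 CPM in mutant and 1510 and 1532 CPM in control basal cells, a log2 fold of 2.11 (SE 0.08, adjusted p 1.10e-12). Of 29 keratins tested between bulge and basal cells, 9 were called higher and 6 lower, beside 37.3% of all genes called, 19.5% higher and 17.9% lower. The median log2 fold was 0.22 over the keratins and -0.04 over all genes, and the share called, 15 of 29, should be read against that background. Krt24, a type I keratin, stood at 62.2 and 30.6 CPM in mutant and 24.4 and 9.44 CPM in control bulge cells, against 0.380 and 1.19 CPM in mutant and 0.712 and 0.733 CPM in control basal cells (log2 fold 4.63, SE 0.39). Krt24 UMIs were found in 30 and 19 mutant and 16 and 14 control bulge cells. Krt5 stayed high in the bulge, at 2898 and 3011 CPM in mutant and 2523 and 2368 CPM in control cells, while Krt14 was at 2146 and 2423 CPM in mutant and 3698 and 3555 CPM in control cells, a log2 fold of -2.17 against basal cells.

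Keratins of the inner root sheath and companion layer, which surround the growing hair, were rare. Krt71, a type II inner root sheath keratin, was at 4.19 and 4.37 CPM in mutant and 8.14 and 4.25 CPM in control bulge cells, a log2 fold of 6.14 (SE 0.56) over basal cells. Krt75, of the companion layer, was at 8.39 and 5.83 CPM in mutant and 3.13 and 8.02 CPM in control bulge cells (log2 fold 3.15), and the inner root sheath keratin Krt27 at 0.699 and 2.915 CPM in mutant and 1.88 and 5.66 CPM in control bulge cells (3.55). Another inner root sheath gene, Krt25, went the opposite way, with 0 and 1.46 CPM in mutant and 0 and 0 CPM in control bulge cells against 6.001 and 4.94 CPM in mutant and 7.12 and 5.22 CPM in control basal cells (-4.76). Krt8 (2.33, SE 0.29), Krt13 (2.85), Krt12 (1.92, 7 against 36 UMIs) and Krt2 (1.40) were also called higher in the bulge and Krt77 (-1.25), Krt16 (-2.02) and Krt17 (-2.002) lower. Krt4 had 0 UMIs in bulge and 138 in basal cells, at least 1.57-fold lower in the bulge with a floor of 3 UMIs over the gate, and was not called with the control libraries alone (adjusted p 0.0779). Several of these calls were fragile: Krt13 was not called without mutant library 1 (2.61, adjusted p 0.0560) or control library 1 (2.42, 0.0683), Krt12 without mutant library 2 (1.75, 0.124) or control library 2 (1.28, 0.345), and Krt2 without control library 1 (1.55, 0.0638) or control library 2 (0.70, 0.444). Krt77 stood at -0.08 (0.720) with stricter marker thresholds, called the strict gate. With that gate Krt79 (2.28, adjusted p 4.14e-06), Krt10 (1.64, 1.51e-16), Krt1 (1.19, 0.000773) and Krt32 (1.05, 0.000315) were also called higher in bulge than in basal cells. Krt42 was called lower there (-9.11, 0.000102). The bulge levels of these genes thus depended on the gate. The hair-shaft keratins Krt31, Krt34, Krt35, Krt36, Krt39, Krt81, Krt82, Krt83, Krt84 and Krt86 had from 2 to 47 UMIs each in all kept unsorted cells. Krt9, Krt26, Krt72, Krt73 and Krt76 had from 4 to 36.

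Each of the 30 members with at least 50 UMIs had its highest mean level in a gate of at least 20 cells a library as follows. The bulge was highest for 9 (Krt13, Krt15, Krt18, Krt24, Krt28, Krt32, Krt42, Krt71 and Krt75), suprabasal cells for 7 (Krt1, Krt2, Krt10, Krt16, Krt77, Krt78 and Krt80), the upper follicle for 4 (Krt7, Krt17, Krt23 and Krt79) and basal cells for 3 (Krt5, Krt14 and Krt25). The other 7 were highest outside the keratinocytes, with Krt8, Krt12, Krt19 and Krt20 in fibroblasts, Krt27 and Krt222 in melanocytes and Krt4 in mast cells. The fibroblast libraries overlapped those of the next gate for each of these 4 genes, and the melanocyte placements rested on 3 UMIs in 2 cells for Krt27 and 1 UMI in 1 cell for Krt222. Neighbouring gates could not be ordered for many of the 30 members. In the bulge the libraries lay clear of the next gate for 4 of its 9 members, and in suprabasal cells for 6 of 7. They did so for 3 of 4 in the upper follicle and 1 of 3 in basal cells. The bulge placements of Krt13 and Krt28 rested on 8 UMIs in 6 cells and 10 UMIs in 8 cells. The same count over all genes was not made. Krt5 was 1.03 times as high in basal as in bulge cells with overlapping libraries, Krt28 in the bulge only 1.00 times as high as in the next gate, and Krt27 in melanocytes 1.061 times. The largest gaps between the first and second gate were those of Krt4 (66.9 times), Krt24 (42.03 times), Krt79 (26.8 times) and Krt75 (12.8 times). For each of them the libraries did not overlap. The Krt4 gap rested on 20 UMIs in 12 mast cells, at 9.91 to 134 CPM over the libraries.

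The 2 chain types were not equal in transcript number. Summed type I UMIs were 2.37 and 2.29 times the type II UMIs in mutant and 2.05 and 2.096 times in control suprabasal cells, against 5.70 and 5.88 times in mutant and 5.28 and 5.24 times in control basal cells. Granular cells were nearest to parity, at 1.37 and 1.36 in mutant and 1.36 and 1.17 in control libraries. Bulge cells had 5.02 and 4.95 in mutant and 5.78 and 5.53 in control libraries, and 4.54 and 4.33 in mutant and 5.15 and 5.10 in control libraries with the type II genes Krt6a and Krt6b added. Within the suprabasal type II chains, Krt77 exceeded Krt1 by 5.59 and 5.20 times in mutant and 3.11 and 3.34 times in control cells. These are counts of 3′ tags, and the amount of protein was not measured.

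A pair of lists of other genes of the keratin system were read beside the family. Of 13 tested filament anchors (desmosomal plakins, plakophilins and hemidesmosome linkers), 5 were called higher in suprabasal than in basal cells and 4 lower, with a median log2 fold of 0.42, beside 9.77% of all genes called higher and 17.7% lower. The higher ones were the desmosome proteins Dsp (1.25), Evpl (2.05), Jup (1.02), Pkp1 (1.33) and Ppl (1.89), and the lower ones Dsg3 (-1.05), Pkp2 (-3.21) and the hemidesmosome linkers Dst (-1.74) and Plec (-2.33). Of 12 tested regulators and modifiers, 5 were higher and none lower (median 0.87), namely the transglutaminases Tgm1 (5.15) and Tgm5 (1.09), which cross-link keratins into the cornified envelope, and the transcription factors Grhl3 (4.23), Foxn1 (2.84) and Klf4 (1.23). In the upper follicle 2 of 13 anchors were higher and 2 lower, and 5 of 12 regulators higher and 3 lower, beside 12% of all genes higher and 9.40% lower. In the bulge 2 of 13 anchors were higher and none lower, beside 19.5% and 17.9% of all genes, while 2 of 12 regulators were higher and 6 lower, with the factors Klf5 (-3.15), Ovol1 (-2.36) and Tfap2a (-2.08) among the lower ones and Tgm5 at 6.99.

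The genotypes differed by small amounts in most abundant keratins. The share of all genes that passed an adjusted p under 0.05 at any fold was not counted, so these differences have no background. In basal cells Krt16 was higher in mutant than in control libraries by a log2 fold of 0.37 (adjusted p 1.01e-06), Krt77 by 0.49 (2.22e-05), Krt32 by 0.57 (4.70e-05), Krt80 by 0.48 (0.00727) and Krt17 by 0.14 (0.00411), and Krt10 (-0.31, 0.000954), Krt5 (-0.16, 0.000628), Krt14 (-0.13, 0.0038) and Krt15 (-0.09, 0.0366) were lower, all with an adjusted p under 0.05 and below the fold needed for a call. In suprabasal cells Krt16 was higher by 0.47 (SE 0.04, adjusted p 7.87e-08), Krt79 by 0.79 (SE 0.13, 0.000565), Krt23 by 0.40 (0.0140), Krt17 by 0.25 (0.000924) and Krt77 by 0.11 (0.0119). Krt1 was lower there by 0.64 (log2 fold -0.64, SE 0.04, adjusted p 4.12e-09), Krt5 by 0.89 (-0.89, SE 0.08, 1.76e-06) and Krt10 by 0.22 (-0.22, 1.94e-05), and so were Krt14 (-0.19, 0.0217) and Krt15 (-0.19, 0.0145). In upper follicle cells Krt1 was again lower (-0.54, SE 0.07, adjusted p 0.00446) and Krt16 did not pass (0.36, 0.0804). In bulge cells Krt14 (-0.69, SE 0.09, 0.000114) and Krt17 (-0.54, 0.0382) were lower and Krt15 was higher (0.39, 0.00928).

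With both an adjusted p under 0.05 and an absolute log2 fold of at least 1, 3 of 24 keratins were called in basal cells, where 2.22% of all genes were called. Krt19, the tailless type I chain of simple epithelia and follicles, had 21 and 25 UMIs in mutant and 6 and 5 UMIs in control basal cells (log2 fold 2.57, SE 0.40, adjusted p 0.000635). Krt4, of internal stratified epithelia, had 30 and 56 UMIs in mutant and 21 and 31 in control basal cells (1.26, SE 0.34, 0.0187). It was called in 6 of 11 alternative runs. The call was lost in DESeq2 (1.27, adjusted p 0.0524), with no filter on low counts (1.24, 0.0674) and with stricter marker thresholds (1.25, 0.0522). Its log2 fold was 0.70 without mutant library 2 and 1.02 without control library 1. Krt8 had 22 and 22 UMIs in mutant and 124 and 74 in control basal cells (-1.63, SE 0.30, 0.00197), but 1 control cell held 108 of the 124, and without it the control libraries had 16 and 74 and the log2 fold was -0.50 with an adjusted p of 0.562. With the strict gate Krt8 stood at 0.14. Bulge cells had 3 of 12 keratins called, beside 1.13% of all genes. They were Krt77 at 121 and 48.8 CPM in mutant and 32.6 and 39.2 CPM in control cells (1.22, SE 0.27, 0.0152), Krt24 (1.51, SE 0.34, 0.0153) and Krt1 at 10.5 and 2.915 CPM in mutant and 4.39 and 77.4 CPM in control cells (-2.70, SE 0.74, 0.0496). Each of the 3 lost its call without at least 1 library. Krt1 stood at a log2 fold of 0.59 with an adjusted p of 0.909 without control library 2 and at -2.08 (0.402) without mutant library 2, without mutant library 1 Krt77 stood at 0.42 (0.515), and Krt24 stood at 0.90 without mutant library 1 (0.103) or without control library 2 (0.0637). With the strict gate Krt24 stood at 0.08 (0.996) and Krt77 at 1.68 (0.634), and in DESeq2 at 1.44 (0.749) and 1.22 (0.691).

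**Figure D3:**
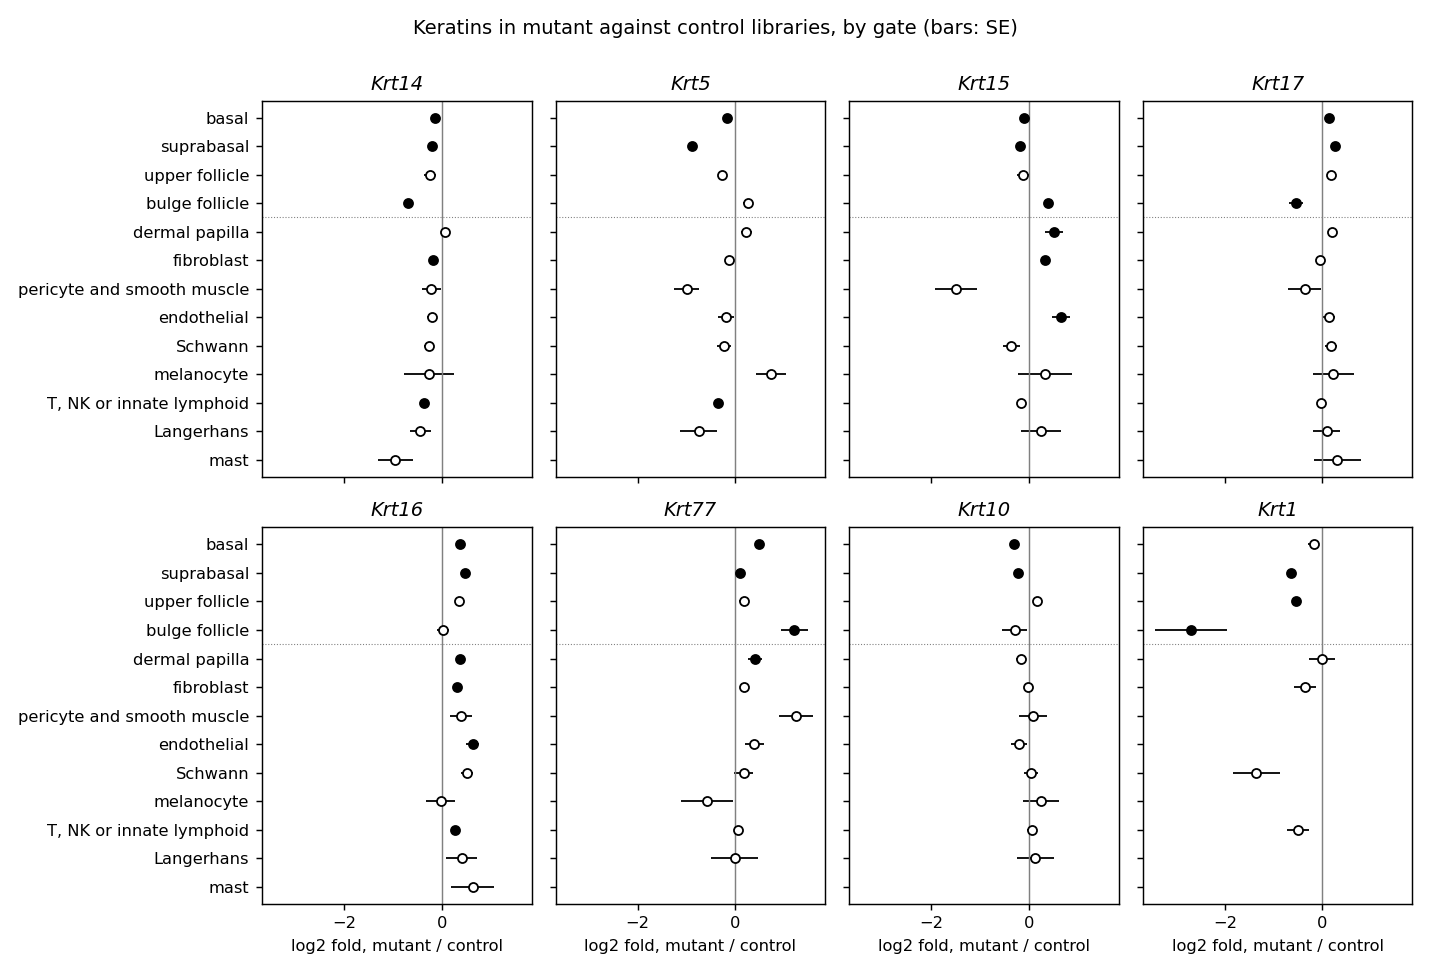
Log2 fold of mutant over control (x axis) for 8 abundant keratins in each gated cell group (rows), with standard errors; filled points have an adjusted p under 0.05 and the dotted line separates keratinocyte gates above from other cells below. Krt16 lies right of 0 in 12 of its 13 groups and Krt14 left of 0 in 12 of 13.

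None of 17 keratins was called in suprabasal cells (1.27% of all genes called, 12 keratins with an unadjusted p under 0.05, 0 called by DESeq2), and none of 16 in upper follicle cells (0.366%, 3 with an unadjusted p under 0.05, 0 by DESeq2). The share of all genes with an unadjusted p under 0.05 was not counted. Keratin counts at that level, here and for the groups outside the epithelium below, therefore have no background. None of the filament anchors or regulators tested (13 and 12 in basal, 12 and 12 in suprabasal, 12 and 11 in upper follicle and 12 and 9 in bulge cells) was called between the genotypes. With an adjusted p under 0.05 at any fold, 1 anchor was higher and 2 lower in mutant basal cells, and 5 regulators higher and 1 lower. In suprabasal cells 0 anchors were higher and 5 lower, and 3 regulators higher and 0 lower. Upper follicle cells had none, and bulge cells had 2 regulators lower. The difference between genotypes itself differed between suprabasal and basal cells for Krt5 (-0.76, SE 0.09, adjusted p 0.000502), Krt77 (-0.41, SE 0.04, 6.88e-05) and Krt79 (1.30, SE 0.20, 0.00299), of which Krt79 was called, beside 0.173% of all genes. Krt79 stood at 99.98 and 64.4 CPM in mutant and 44.4 and 49.2 CPM in control suprabasal cells, from UMIs in 42 and 39 mutant and 49 and 68 control cells. The 95th percentile of suprabasal cells was between 0.463 and 0.645 Krt79 UMIs per 10000 over the 4 libraries. Without control library 1 the Krt79 difference was 0.89 (0.00203), and in DESeq2 it was 1.28 with an adjusted p of 0.255. On the suprabasal side the difference therefore rests on a few cells in a gate next to the upper follicle gate. Basal cells, at the low Krt79 levels given above, also enter the difference. Whether the make-up of the gate contributes was not tested. For Krt16 the difference between layers was 0.08 (adjusted p 0.345) and for Krt1 it was -0.48 (0.0693), neither past the threshold.

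Keratin UMIs were not confined to keratinocytes. Counts were pooled over 6 non-epithelial groups (dermal papilla, fibroblast, endothelial, Schwann, T, NK or innate lymphoid, and Langerhans cells). There all keratins stood at 708 and 680 CPM in mutant and 699 and 710 CPM in control libraries. The means, 694 and 704 CPM, gave a log2 ratio of -0.02 (exact permutation p 0.667). T, NK or innate lymphoid cells, which are not known to make keratins, had 878 and 852 CPM in mutant and 880 and 900 CPM in control libraries, and a keratin UMI in 98.1% and 97.2% of mutant and 96.0% and 97.7% of control cells. Fibroblasts had 651 and 635 CPM in mutant and 647 and 634 CPM in control libraries. A share of cells with a UMI at this level therefore does not show expression, and the level in T cells served as the background for the cells below. Langerhans cells, which live in the epidermis, had 603 and 463 CPM in mutant and 544 and 575 CPM in control libraries, no more than the dermal cells. Gates outside the epithelium took only cells with a mean scaled level under 0.3 for a list of general keratinocyte markers. Cells with much keratinocyte RNA were thus left out, so the gates limit the keratin level that any of these groups can show. Melanocytes stood higher and uneven, at 2562 and 3398 CPM in mutant and 4179 and 1408 CPM in control libraries, from 29 to 36 cells each. The median melanocyte had 5 and 4 keratin UMIs in mutant and 3 and 3 in control libraries. T cells were close, at 4 and 4 in mutant and 3 and 4 in control libraries. The most loaded melanocyte for Krt14 held 15.4% of its UMIs there, and that for Krt15 held 17.7%.

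Krt16 in these cells followed the genotype as it did in keratinocytes. It stood at 157.5 and 154 CPM in mutant and 121 and 122 CPM in control T cells (log2 fold 0.28, adjusted p 0.00143), 184 and 137 CPM in mutant and 113 and 99.1 CPM in control endothelial cells (0.64, 0.000423), and 104 and 97.3 CPM in mutant and 82.4 and 82.3 CPM in control fibroblasts (0.32, 0.00261). Over 13 gated groups Krt16 was higher in mutant libraries in 12, and the 6 that passed an adjusted p under 0.05 were all higher. Krt14 was lower in 12 of 13 groups, and all 5 that passed were lower. These groups share their libraries and are not independent. Relative to Krt14 the difference was larger. The Krt16 to Krt14 ratio was 0.592 in mutant and 0.378 in control T cells, 0.678 and 0.382 in mutant and control endothelial cells, and 0.509 and 0.342 in all kept cells of the mutant and control libraries. Whether RNA free in the cell suspension gave these counts was not tested.

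The Krt10 level relative to Krt14 differed between cell types. The ratio was 0.585 ± 0.0442 in fibroblasts and 0.520 ± 0.101 in dermal papilla cells, against 0.224 ± 0.0410 in T cells, 0.253 ± 0.0178 in endothelial cells and 0.295 ± 0.0390 in Schwann cells (SD, n = 4 libraries). The ratio was higher in both mesenchymal groups in 4 of 4 libraries, by 1.77 to 2.62 times, with a paired exact permutation p of 0.125, the smallest that 4 pairs allow. The Krt5 to Krt14 ratio was nearly level in the same cells, at 0.285 and 0.274 in mutant and control fibroblasts and 0.291 and 0.288 in mutant and control T cells. Both numerator and denominator moved: Krt10 stood at 99.9 and 104 CPM in mutant and 103 and 107 CPM in control fibroblasts, against 71.1 and 63.7 CPM in mutant and 58.7 and 64.0 CPM in control T cells, and Krt14 at 167 and 163 CPM in mutant and 195 and 186 CPM in control fibroblasts, against 258 and 268 CPM in mutant and 315 and 328 CPM in control T cells. Krt10 UMIs were spread thinly, in 56.6% of fibroblasts and 49.4% of papilla cells against 25.5% of T cells and 28.7% of endothelial cells. Median depths over the 4 libraries were 8067.5 to 10453 UMIs per cell in fibroblasts and 6402 to 7683 in papilla cells, against 4328.5 to 5000 in T cells and 3548 to 4769 in endothelial cells. After thinning every cell to 2000 UMIs the share was 18.7%, 18.8%, 19.5% and 18.0% in fibroblasts and 14%, 11.95%, 10.7% and 12.7% in T cells of mutant 1, mutant 2, control 1 and control 2. The most loaded 1% of fibroblasts held 6.79% of their Krt10 UMIs, 9.40% of Krt14 and 32.9% of Krt15.

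**Figure D4:**
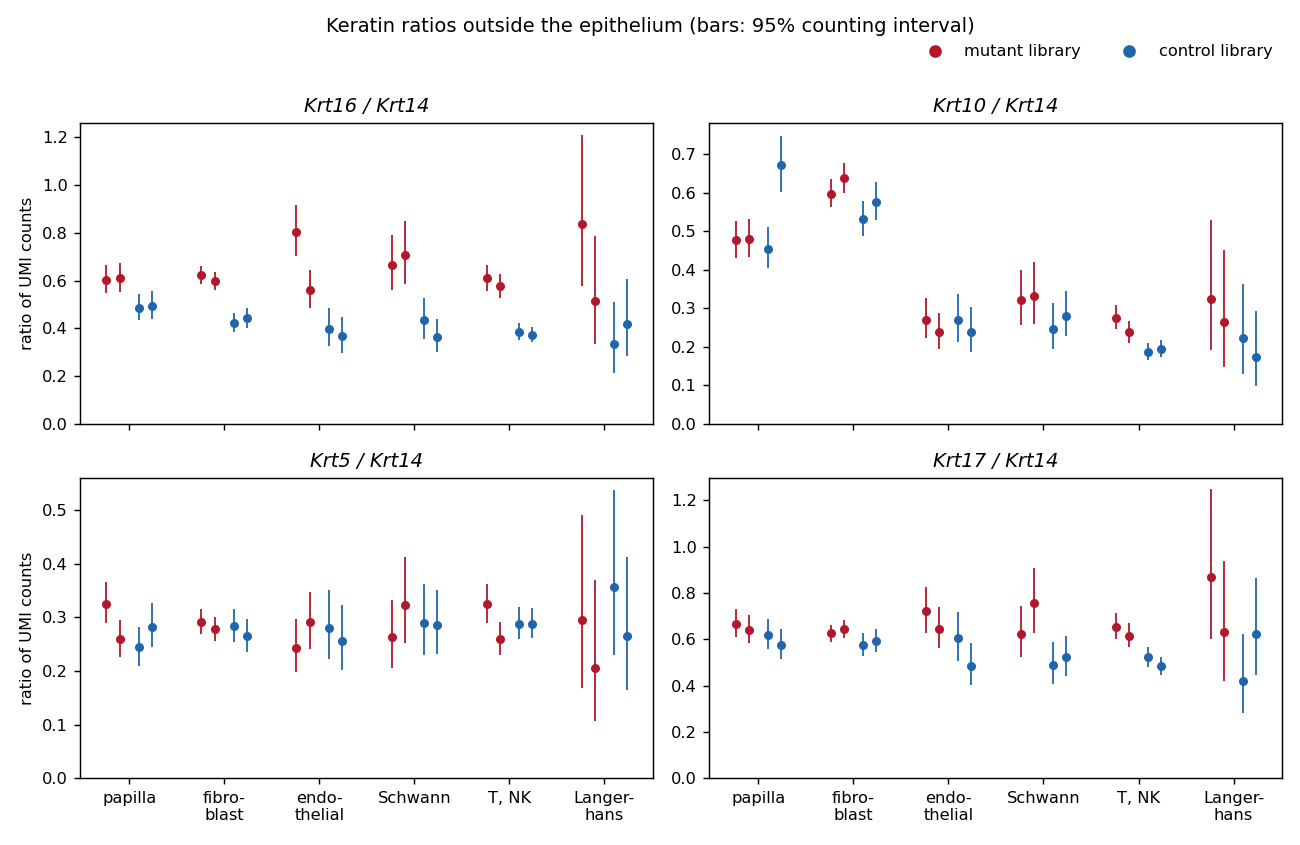
Ratio of Krt16, Krt10, Krt5 and Krt17 UMIs to Krt14 UMIs in 6 non-epithelial groups (x axis), 1 point a library with its 95% counting interval, mutant in red left of control in blue. The Krt16 ratio is higher in mutant libraries in each group, and the Krt10 ratio is higher in dermal papilla cells and fibroblasts than in the rest. The Krt5 ratio is nearly level between fibroblasts and T cells. Langerhans cells, the last group, had only 46 to 54 cells a library.

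Krt8, Krt19, Krt12 and Krt20 had UMIs in a larger share of fibroblasts than of T cells. The fibroblast gate held 18.0% and 17.8% of mutant and 11.6% and 10.5% of control cells. Krt8 had UMIs in 343 of 4852 fibroblasts (7.07%) against 10 of 4549 T cells (0.220%), at 11.6 and 12.1 CPM in mutant and 14.6 and 13.1 CPM in control fibroblasts, with no genotype call (-0.20, adjusted p 0.331). Bulge cells overlapped this range, at 6.29 and 5.83 CPM in mutant and 12.5 and 8.96 CPM in control libraries, and fibroblasts held 618 of all 1607 Krt8 UMIs. Its usual type I partner Krt18 had only 5 and 2 UMIs in mutant and 0 and 3 UMIs in control fibroblasts, beside 198 and 199 Krt8 UMIs in mutant and 118 and 103 in control fibroblasts. Krt19 had UMIs in 191 fibroblasts (3.94%) against 7 T cells (0.154%). It was the only keratin called between genotypes in fibroblasts, where 1 of 14 was called beside 2.06% of all genes. Krt19 had 375 and 304 UMIs in mutant and 34 and 29 UMIs in control fibroblasts, which is 22.0 and 18.4 CPM in mutant and 4.20 and 3.68 CPM in control libraries (log2 fold 2.39, SE 0.17, adjusted p 2.70e-07). The groups did not overlap, and the UMIs came from 80 and 81 mutant and 16 and 14 control cells, or 5.32% and 5.26% of mutant and 1.71% and 1.61% of control fibroblasts. Thinned to 2000 UMIs per cell the shares were 3.17% and 3.12% in mutant and 0.989% and 0.940% in control fibroblasts.

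Krt12, the corneal type I keratin, and Krt20, of gut and Merkel cells, were also highest in fibroblasts. Krt12 had 72 and 50 UMIs in mutant and 13 and 20 UMIs in control fibroblasts, from 118 cells in all (log2 fold 0.84, adjusted p 0.0864). Krt20 had 25 and 18 UMIs in mutant and 5 and 3 UMIs in control fibroblasts, from 43 cells (1.37, adjusted p 0.0844). Neither passed the test. Few cells held UMIs of 2 of these genes: Krt8 shared 3 cells with Krt19, 2 with Krt12 and 2 with Krt20, and Krt19 shared none with Krt12 and 6 with Krt20. Krt12 and Krt20 shared 8, which is 18.6% of the Krt20 cells, while 2.43% of all fibroblasts had a Krt12 UMI. Genes seen in so few cells share few cells in any case, so the small overlaps do not show that they mark different cells.

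Genes seen beside them were chosen after their values were seen and so are given without a test. The share of cells with their UMIs differed between fibroblasts positive and negative for the keratin. Tnmd, a tendon and ligament protein, had UMIs in 94.2% of Krt8-positive and 49.7% of Krt8-negative fibroblasts, and Kera, which encodes keratocan, in 69.4% against 11.5%. Msln, which encodes mesothelin, had UMIs in 33.5% of Krt19-positive and 0.257% of Krt19-negative fibroblasts. Hhip, a Hedgehog-interacting protein, had UMIs in 39.0% of Krt12-positive against 7.86% of Krt12-negative and 55.8% of Krt20-positive against 8.19% of Krt20-negative fibroblasts. Krt20-positive cells were also the deeper ones, with medians of 17632 against 9282 UMIs, and Krt12-positive cells had 12829.5 against 9263.5, while Krt19-positive cells were shallower, at 7038 against 9361.

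**Figure D5:**
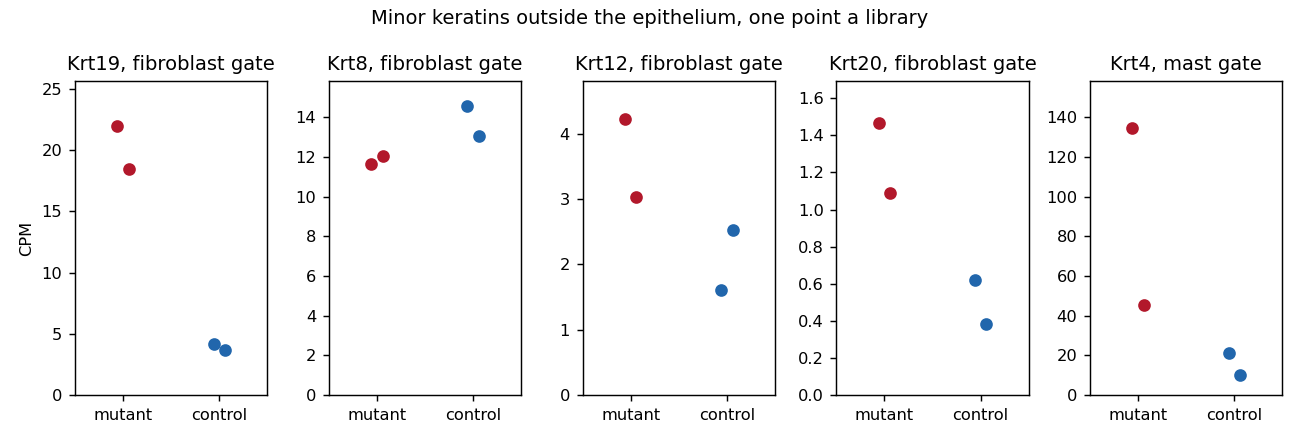
Level (CPM) of Krt19, Krt8, Krt12 and Krt20 in the fibroblast gate and of Krt4 in the mast cell gate, 1 point a library, mutant in red left of control in blue. For Krt19 both mutant libraries, at 22.0 and 18.4 CPM, lie above both control libraries, and for Krt8 the genotypes lie near each other.

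Other groups outside the epithelium gave 1 further call. In dermal papilla cells 1 of 11 keratins was called beside 5.87% of all genes, and it was Krt76, a type II keratin of the palate, with 0 UMIs in mutant and 19 UMIs in control papilla cells, at least 7.92-fold lower in mutant cells with a floor of 3 UMIs over the group (adjusted p 0.000207). With 0 mutant UMIs, Krt76 passed the filter on low counts through the control libraries alone, the group where it was high. Its p-value is therefore no support for a difference. Without any 1 library, and with the strict gate, it did not pass the filter on low counts and was not tested. The papilla keratin called without control library 1 was Krt23 (-1.11, adjusted p 0.0434). Krt76 had 33 UMIs in all kept unsorted cells. Trp63, the p63 factor of stratified epithelia, was the only gene of the 2 lists called between genotypes in any group, at a log2 fold of -1.68 in papilla cells. None of 7 keratins was called in pericytes and smooth muscle (0.234% of all genes called, 3 keratins with an unadjusted p under 0.05, 0 by DESeq2), none of 8 in endothelial cells (0.839%, 3, 0), none of 8 in Schwann cells (0.118%, 3, 0), none of 7 in melanocytes (0%, 1, 0), none of 9 in T cells (4.47%, 4, 0), none of 7 in Langerhans cells (0.231%, 0, 0) and none of 3 in mast cells (0%, 1, 0), with the counts given in the same order. Krt4 was highest in mast cells, with 13 and 4 UMIs in mutant and 2 and 1 UMIs in control cells, from 12 of 93 mast cells (12.9%), and it was not among the 3 keratins tested there.

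The sorted library held far less Krt16 and Krt17. Its 432 cells had 1417 Krt14, 720 Krt15, 541 Krt5, 273 Krt10, 92 Krt17, 80 Krt77, 63 Krt1 and 2 Krt16 UMIs, and all keratins stood at 2898 CPM. The Krt16 to Krt14 ratio was 0.00141 (95% counting interval 0.000171 to 0.00511) in the sorted library against 0.509 and 0.342 in all kept cells of the unsorted mutant and control libraries. The Krt17 to Krt14 ratio was 0.0649 (0.0520 to 0.0802) in the sorted library against 0.561 and 0.465 in the mutant and control libraries. Krt10 per Krt14 was 0.328 (0.251 to 0.424) in sorted papilla cells, 0.328 (0.187 to 0.551) in sorted fibroblasts and 0.189 (0.105 to 0.320) in sorted endothelial cells, and 0.0386 (0.0203 to 0.0669) in the 6 cells gated as basal. The intervals cover counting error only. With a single sorted library there is no replicate, and sorting, age, chemistry, Cell Ranger version and gene list all differ from the unsorted libraries, so their parts in this difference cannot be told apart.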

How the data were processed

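Single cells were captured with 10x 3′ chemistry, v3 for the unsorted and v2 for the sorted library, per the labels' protocols. The submitters' processing notes name Cell Ranger 2.1.1 and 3.1.0, Seurat 3.2.2, Scanpy 1.6.0, mm10 and GRCm38, and the headers of the unsorted files name Cell Ranger 3.1.0. The deposited values are raw UMI counts per gene and barcode. The libraries held 121619255 and 120045403 (mutant), 136739889 and 139095844 (control) and 1118686 (sorted) UMIs in kept cells.

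From these counts, cells with 500 to 8000 genes (at least 300 in the sorted library) and at most 10% mitochondrial UMIs were kept. Scrublet (in scanpy 1.11.5) removed 161 and 166 mutant and 176 and 159 control barcodes at a single score threshold of 0.237, because its automatic threshold of 0.6 in control library 1 marked none. The sorted library was used with no doublet call. Gates used the mean scaled level of each marker list, with thresholds set with the files in view. UMIs were summed per library and gate and tested with edgeR 4.0.16 (TMM, quasi-likelihood, R 4.3.3) in gates of at least 20 cells in every unsorted library, adjusted by the Benjamini-Hochberg method over all genes. Layer contrasts had library as a block. The fits were tested on simulated counts. DESeq2 1.42.0, a strict gate, kept doublets, no filter on low counts, scaling without the keratins, control libraries alone for the layers, and left-out libraries were alternatives. Same-numbered libraries deviated with correlations from -0.0664 to 0.0777, so the numbers were not used as pairs.

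Members with at least 50 UMIs are named, and the 12 with most UMIs and any called member are given with values. The members and gene lists were chosen with earlier results of these data known. Gene positions and transcript ends came from GENCODE M21, promoter windows from RefSeq (GRCm38.p6), and motifs were searched on both strands. Of the 35 windows, 31 began within 100 bases of the GENCODE gene start, and TATAAA was in 51.6% of these. Exact intervals at 95% and floors of 3 counts cover counting error only.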

Additional observations from a re-analysis of the deposited data

Results flagged for a closer look

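The genotype difference (mutant over control, log2) differed between suprabasal and basal keratinocytes for 3 keratins, by the interaction term of the edgeR fit. Krt79 differed by 1.30 (adjusted p 0.00299), at 0.79 in suprabasal cells, and it fell to 0.89 without control library 1. Krt5 differed by -0.76 (adjusted p 0.000502), at -0.89 in suprabasal and -0.16 in basal cells. Krt77 differed by -0.41 (adjusted p 6.88e-05), at 0.11 in suprabasal and 0.49 in basal cells. The part that a shift in cell make-up of the gates has in these was not tested.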

How the results depend on the processing

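Of 51 layer calls, 41 held in every alternative run. Of 8 genotype calls 3 held in every alternative that gave them an adjusted p (Krt19 in basal cells, Krt19 in fibroblasts and Krt76 in papilla cells). DESeq2 gave no adjusted p to Krt19 in basal cells, and Krt76 had one in only 5 alternatives. Those 5 all kept every unsorted library and the main gate, so they are no separate support for Krt76. The only keratin that DESeq2 called in basal cells was Krt8, lower in mutant libraries, whose edgeR call was lost without 1 control cell. With DESeq2 the keratins called fell to 1 in basal, 0 in bulge and 0 for the layer difference, and with the strict gate to 1, 0 and 0, to 0 in papilla cells, while suprabasal cells gained 1. Pericytes had 2 without a filter on low counts and 1 with replicate number as a block; the numbers do not pair the libraries, and the block moved no other count of keratin calls by over 1.5 times. Leaving out 1 library gave 2 to 4 calls in basal, 0 to 2 in suprabasal, 1 to 4 in bulge, 0 to 1 in papilla, 1 to 2 in fibroblast, 0 to 2 in pericyte, 0 to 1 in endothelial and 0 to 4 in melanocyte cells, and 0 to 1 for the layer difference. Without 1 library the pooled non-epithelial log2 ratio ran from -0.0519 to 0.00675, turning sign without mutant library 2. The mutant minus control share ran from -0.384 to 0.0828 percentage points in Schwann cells, from -0.00155 to 0.041 in melanocytes and from -0.045 to 0.0104 (0.0035 without control library 1) in mast cells. Krt8 in basal cells stood at 0.14 with the strict gate, and Krt1 in bulge cells ran from -3.90 to 0.59, with 0.59 without control library 2. Over all genes, DESeq2 called 147 against 325 in basal, 49 against 140 in suprabasal, 23 against 39 in upper follicle, 25 against 102 in bulge, 467 against 739 in papilla, 159 against 279 in fibroblast, 9 against 14 in pericyte, 6 against 77 in endothelial, 226 against 499 in T and 3 against 10 in Langerhans cells, and 7 against 24 for the layer difference, the second number being the edgeR count. With no filter on low counts the count was 90 in suprabasal, 101 in upper follicle, 173 in bulge, 101 in pericyte, 0 in endothelial, 61 in Schwann (11 in the edgeR fit with the filter), 15 in melanocyte (0), 291 in T, 0 in Langerhans and 52 in mast cells (0), and 62 for the layer difference. The strict gate gave 23 in upper follicle, 2 in bulge, 6 in pericyte, 28 in endothelial, 24 in Schwann and 0 in Langerhans cells, and the replicate block 42 in pericyte, 32 in Schwann, 9 in melanocyte and 44 in Langerhans cells. Leaving out 1 library gave up to 121 in upper follicle, 159 in bulge, 102 in pericyte, 37 in Schwann, 82 in melanocyte, 38 in Langerhans and 46 in mast cells and 73 for the layer difference, and as few as 302 in T cells. The strict-gate melanocyte fit was not run, as control library 1 kept under 20 cells. The cause of these changes was not tested. Depth limits the granular gate and the members under 50 UMIs.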
